A study of Homo sapiens with 24 samples.

Results

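NRF2, the transcription factor encoded by NFE2L2, and 8 genes tied to its activity were followed in renal carcinoma cells. The 9 genes were chosen by name (NFE2L2, KEAP1, NQO1, HMOX1, GCLC, GCLM, TXNRD1, SRXN1 and OSGIN1) out of 26475 genes in the deposited files. Their values did not enter the rule of choice, but earlier results of these data were known when it was made. All 9 passed the filter on low counts in every fit. RNA was sequenced from 786-M1A and OS-LM1, metastatic derivatives of the VHL-mutant clear cell renal carcinoma lines 786-O and OS-RC2, grown in RPMI with fetal bovine serum. Each line carried shPAX8-1 or shPAX8-2, inducible RNAi hairpins against the renal lineage factor PAX8, or sgNTC18, a non-targeting guide RNA, with 4 libraries in each of the 6 groups and 24 libraries in all. All groups share the VHL-mutant background and a luciferase transgene. Since sgNTC18 is a guide RNA and not a hairpin, PAX8 depletion and the kind of construct cannot be told apart where a hairpin is set against sgNTC18. The comparison of the hairpins with each other sets no library against sgNTC18. The sgNTC18 libraries still share its fit and enter the estimate of the spread, so its calls can depend on them. The labels do not say whether the libraries of a group came from separate cultures, so p-values measure the spread between these libraries, which may be technical.

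In cells that are not under oxidative or electrophilic stress, KEAP1 holds NRF2 in a ubiquitin ligase with CUL3 and NRF2 protein is degraded. When cysteines of KEAP1 are modified, NRF2 accumulates, pairs with a small MAF protein and binds antioxidant response elements in genes for glutathione synthesis, thioredoxin reduction, quinone detoxification and haem breakdown. NRF2 is controlled largely at the level of its protein, which RNA sequencing does not measure.

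Library depth, as the total of expected counts, ranged from 11634419 to 52059375. PAX8, the targeted gene, was at 292, 393, 360 and 319 CPM (counts scaled by the normalized library size) with sgNTC18 in 786-M1A, at 14.8 to 22.9 CPM with shPAX8-1 and at 40.0 to 45.5 CPM with shPAX8-2. In OS-LM1 it was at 245 to 279 CPM with sgNTC18, at 59.8 to 89.2 with shPAX8-1 and at 63.8 to 97.0 with shPAX8-2, so that the hairpin libraries did not overlap the sgNTC18 libraries in either line. Of 11 markers of renal epithelium and clear cell carcinoma, 8 to 10 had a mean of at least 1 TPM (a depth-scaled level per transcript length) in each group. CA9 was at 0 TPM in the 786-M1A sgNTC18 group, the endothelial markers summed to at most 0.200 TPM in any library, and the 3 leukocyte markers to 0.900 to 4.94 TPM, of which CD3E was at 0 TPM in all groups, PTPRC at a group mean of at most 0.227 and LYZ at 1.48 to 3.47 TPM. The 3 fibroblast markers summed to 55.7 to 126 TPM in the 786-M1A libraries with shPAX8-1 and 182 to 271 TPM in the others of that line, nearly all from PDGFRB at a mean of 90.2 to 232 TPM. In OS-LM1 they summed to 4.18 to 5.80 TPM with sgNTC18 and 27.7 to 59.0 with the hairpins, mostly from COL1A1, which had means of 4.77, 30.4 and 47.8 TPM with sgNTC18, shPAX8-1 and shPAX8-2, and the part of these markers in the results was not tested. The 786-M1A libraries with shPAX8-1 fell into pairs. Libraries 1 and 2 differed by a chi-square of 14.1 per gene and libraries 3 and 4 by 3.73, against 44.8 to 77.5 across the pairs. Libraries of OS-LM1 with shPAX8-2 also differed widely, by up to 89.6, between libraries 3 and 4, of which library 3 was the deepest of all. Values without each pair are given for the results on which the pairs bore most. Fold changes also moved with the GC content of the transcripts. Their rank correlation with GC was -0.37 for shPAX8-1 and -0.105 for shPAX8-2 against sgNTC18 in 786-M1A, and -0.331 and -0.283 in OS-LM1, as a description across genes. GC content was 41.5% for NFE2L2, 60.2% for KEAP1, 37.3% for GCLM and 64.7% for OSGIN1. Values with each library's GC trend removed are therefore given beside many of the results they move, but not all. GCLC with shPAX8-1 against sgNTC18 in 786-M1A, for example, went from a log2 fold change of 0.95 to 0.64. The part of GC content in the results was not tested.

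The hairpin guides are shown because every depletion here rests on them, with bases 2 to 8 (the seed, which can pair with other transcripts) in capitals.
shPAX8-1: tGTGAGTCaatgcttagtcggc
shPAX8-2: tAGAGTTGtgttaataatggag
Both guides matched PAX8 transcripts in antisense over all 22 bases, and PAX8 was the only protein-coding gene in the GENCODE transcripts that held either target with at most an end base missing. A stretch of 7 bases complementary to the seed of shPAX8-1 occurred in transcripts of GCLM and SRXN1, and among all 19676 protein-coding genes 16.7% held it. For shPAX8-2 it occurred in transcripts of KEAP1, NQO1, GCLC, GCLM and TXNRD1, against 22.2% of all protein-coding genes. These matches are a description of the sequences and not binding sites.

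The core of the antioxidant response element, TGACNNNGC, was sought on both strands in RefSeq promoter windows (GRCh38.p14) that run from 250 bases before to 50 bases after a start site. Windows were held for 8 of the 9 genes, with HMOX1 not matched. Of the 11 windows, 4 held the motif, and 13.3% of all 35116 windows held it. The matches before a start site are shown, in the direction of transcription, with the motif or its reverse complement in capitals and 10 bases on each side.
GCLM, chr1, reverse complement 25 bases before the start: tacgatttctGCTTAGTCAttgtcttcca
TXNRD1, first window, 90 bases before the start: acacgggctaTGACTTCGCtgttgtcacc
TXNRD1, second window, reverse complement 93 bases before the start: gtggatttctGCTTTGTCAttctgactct
KEAP1, second window, 45 bases before the start: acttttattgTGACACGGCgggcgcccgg
KEAP1, second window, reverse complement 22 bases before the start: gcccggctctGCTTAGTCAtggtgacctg
The first TXNRD1 window held a further match across its start site, which is not shown. No match lay in the windows of NFE2L2, NQO1, GCLC, SRXN1 or OSGIN1, which says only that these letters are not in those bases.

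The first question was how the 9 genes stood in cells with a PAX8 hairpin against cells with sgNTC18. NFE2L2 was higher and KEAP1 and NQO1 were lower with both hairpins in both lines, whereas each of the other 6 genes was called in some of the 4 comparisons or in none. Of the 13737 genes tested in both lines, 12.5% were higher and 14.6% lower in all 4 comparisons. Called here and below means an adjusted p under 0.05 by edgeR's quasi-likelihood test with Benjamini-Hochberg adjustment over all genes tested. With shPAX8-1 in 786-M1A, 4 of the 9 were higher and 3 lower, and of all genes tested 36.1% were higher and 34.5% lower. With shPAX8-2 in 786-M1A, 1 was higher and 4 lower, against 31.5% and 30.9% of all genes. In OS-LM1, 3 were higher and 2 lower with shPAX8-1, against 35.6% and 35.8%, and 6 were higher and 2 lower with shPAX8-2, against 34.3% and 34.1%. The number of genes called among the 9 is therefore read against a background in which most genes tested were called. The median log2 fold change of the 9 was -0.19 and -0.18 with the respective hairpins in 786-M1A and 0.10 and 0.29 in OS-LM1, beside medians over all genes of 0.03, 0.02, -0.01 and -0.01. The 4 comparisons share the sgNTC18 libraries of each line.

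**Figure D1:**
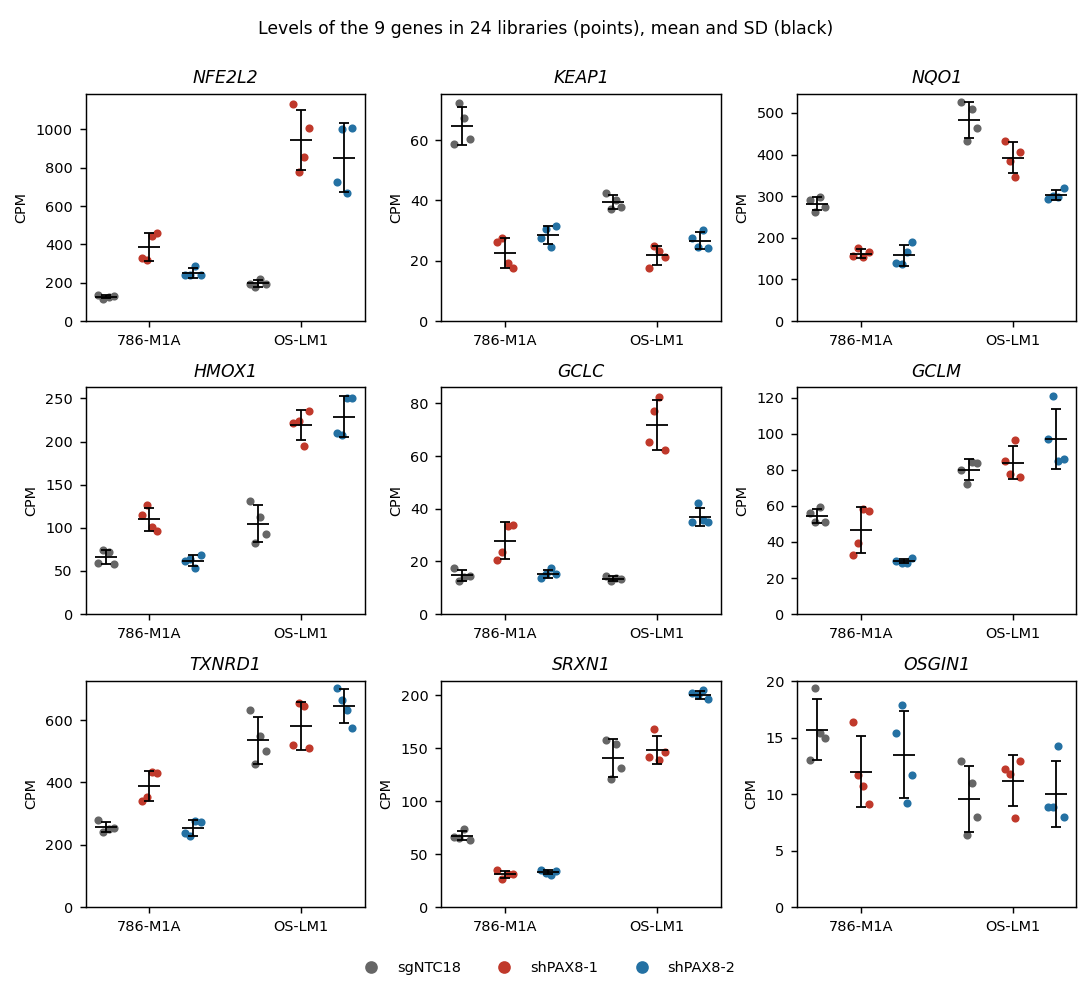
Levels of the 9 genes (vertical axis, CPM, starting at 0) in each library of 786-M1A and OS-LM1, with sgNTC18 in grey, shPAX8-1 in red and shPAX8-2 in blue; points are libraries and black bars the mean and SD of 4. NFE2L2 lies above and KEAP1 below the sgNTC18 libraries with both hairpins in both lines, and the 786-M1A shPAX8-1 libraries of NFE2L2, GCLC, GCLM and TXNRD1 lie in pairs.

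NFE2L2 (chromosome 2, 177230303 to 177264727, GRCh38) was at 135, 116, 127 and 130 CPM with sgNTC18 in 786-M1A, at 328, 316, 443 and 457 CPM with shPAX8-1 and at 238, 238, 287 and 240 CPM with shPAX8-2. The OS-LM1 libraries were at 193, 177, 219 and 195 CPM with sgNTC18, at 1132, 779, 855 and 1009 CPM with shPAX8-1 and at 726, 1004, 670 and 1007 CPM with shPAX8-2. Every hairpin library lay above every sgNTC18 library of its line. The log2 fold change was 1.62 ± 0.13 (SE, adjusted p = 3.14e-08) with shPAX8-1 and 1.00 ± 0.13 (adjusted p = 6.97e-06) with shPAX8-2 in 786-M1A. The values in OS-LM1 were 2.24 ± 0.14 (adjusted p = 4.28e-11) and 2.13 ± 0.14 (adjusted p = 1.11e-10). With the GC trend removed these values were 1.21, 0.93, 1.94 and 1.89, all called. The shPAX8-1 value in 786-M1A was 1.84 without libraries 1 and 2 and 1.34 without libraries 3 and 4.

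KEAP1 (chromosome 19, 10486125 to 10503356), the adaptor that delivers NRF2 to the ligase, moved the other way. It was at 58.8, 72.5, 67.4 and 60.3 CPM with sgNTC18 in 786-M1A, at 26.2, 27.4, 19.1 and 17.6 CPM with shPAX8-1 and at 27.5, 30.4, 24.7 and 31.6 CPM with shPAX8-2. In OS-LM1 it was at 42.5, 37.3, 40.2 and 38.0 CPM with sgNTC18, at 17.7, 24.9, 23.2 and 21.3 CPM with shPAX8-1 and at 27.4, 24.6, 30.3 and 24.4 CPM with shPAX8-2. No hairpin library reached the sgNTC18 libraries of its line. In 786-M1A KEAP1 was 2.82-fold lower with shPAX8-1 (SE 0.15 on the log2 scale, adjusted p = 3.72e-07) and 2.23-fold lower with shPAX8-2 (SE 0.15, adjusted p = 7.78e-06). In OS-LM1 KEAP1 fell on the log2 scale by 0.88 ± 0.11 (adjusted p = 5.49e-07) and by 0.56 ± 0.11 (adjusted p = 0.000128). Without the 786-M1A shPAX8-1 libraries 1 and 2 the shPAX8-1 log2 fold change was -1.81 and without libraries 3 and 4 it was -1.28. The changes were smaller with the GC trend removed, at -0.95 and -1.05 in 786-M1A and -0.44 and -0.25 in OS-LM1, and were still called. KEAP1 is the more GC-rich gene of this pair and NFE2L2 the more AT-rich one.

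Within a library, the ratio of NFE2L2 to KEAP1 by TPM, given as a description without a test, averaged 1.82 ± 0.277 (SD, n = 4) with sgNTC18 in 786-M1A, 17.1 ± 6.94 with shPAX8-1 and 8.24 ± 1.70 with shPAX8-2. In OS-LM1 it averaged 4.57 ± 0.374, 41.7 ± 13.3 and 30.4 ± 9.18. The 786-M1A shPAX8-1 libraries had ratios of 11.6 and 10.8 in libraries 1 and 2 and of 21.8 and 24.3 in libraries 3 and 4. The GC trend was not removed from these ratios. With it removed, the fold changes of both genes were smaller in size in each comparison of a hairpin with sgNTC18.

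GCLC and GCLM encode the catalytic and modifier subunits of glutamate-cysteine ligase, the rate-limiting enzyme of glutathione synthesis. GCLC (chromosome 6, 53497341 to 53545101) was at 12.5 to 17.6 CPM with sgNTC18 in 786-M1A, at 20.4, 23.5, 33.6 and 34.0 CPM with shPAX8-1 and at 13.8, 15.2, 17.4 and 15.1 CPM with shPAX8-2. The OS-LM1 libraries were at 14.5, 12.6, 13.7 and 13.3 CPM with sgNTC18, at 65.4, 77.3, 82.6 and 62.5 CPM with shPAX8-1 and at 35.1, 42.2, 35.7 and 35.1 CPM with shPAX8-2. The 3 OS-LM1 groups did not overlap, and in 786-M1A the shPAX8-2 libraries overlapped those with sgNTC18. In OS-LM1 the log2 fold change was 2.39 ± 0.11 (adjusted p = 3.75e-13) with shPAX8-1 and 1.46 ± 0.11 (adjusted p = 5.4e-10) with shPAX8-2. In 786-M1A it was 0.95 ± 0.17 (adjusted p = 0.000134) with shPAX8-1 and 0.08 ± 0.17 (adjusted p = 0.685) with shPAX8-2. The 786-M1A shPAX8-1 value of GCLC was 1.22 without libraries 1 and 2 and 0.58 without libraries 3 and 4, both called.

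GCLM (chromosome 1, 93885199 to 93909430) did not follow GCLC. It was at 56.1, 51.0, 59.1 and 50.9 CPM with sgNTC18 in 786-M1A, at 32.6, 39.5, 58.1 and 56.9 CPM with shPAX8-1 and at 29.2, 28.5, 28.5 and 31.1 CPM with shPAX8-2. In OS-LM1 it was at 72.0 to 84.2 CPM with sgNTC18, at 76.2 to 96.6 CPM with shPAX8-1 and at 85.1 to 121 CPM with shPAX8-2. The fall with shPAX8-2 in 786-M1A, by 0.87 ± 0.16 on the log2 scale (adjusted p = 0.000228), was the largest difference of GCLM from sgNTC18 among the 4 comparisons. With shPAX8-1 in 786-M1A the log2 fold change was -0.19 ± 0.16 (adjusted p = 0.277), and it was -0.59 and called without libraries 3 and 4 and 0.10 and not called without libraries 1 and 2. In OS-LM1 the values were 0.04 ± 0.11 (adjusted p = 0.734) and 0.29 ± 0.11 (adjusted p = 0.0294). The direction in OS-LM1 turned with the GC trend removed, to -0.39 (called) with shPAX8-1 and -0.07 (not called) with shPAX8-2, and the 786-M1A shPAX8-1 value became -0.78 (called). The OS-LM1 shPAX8-2 call of GCLM was lost on leaving out sgNTC18 library 1 or 2, shPAX8-2 library 1 or 2, or shPAX8-1 library 2, with log2 fold changes of 0.16 to 0.29.

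The ratio of GCLC to GCLM by TPM averaged 0.360 ± 0.0487 (SD, n = 4) with sgNTC18, 0.795 ± 0.0264 with shPAX8-1 and 0.697 ± 0.0836 with shPAX8-2 in 786-M1A. In OS-LM1 it averaged 0.225 ± 0.0145, 1.14 ± 0.128 and 0.511 ± 0.0461. In both lines the hairpin libraries lay above the sgNTC18 libraries, also in 786-M1A with shPAX8-2, where the level of GCLC overlapped that with sgNTC18 and GCLM was lower.

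**Figure D2:**
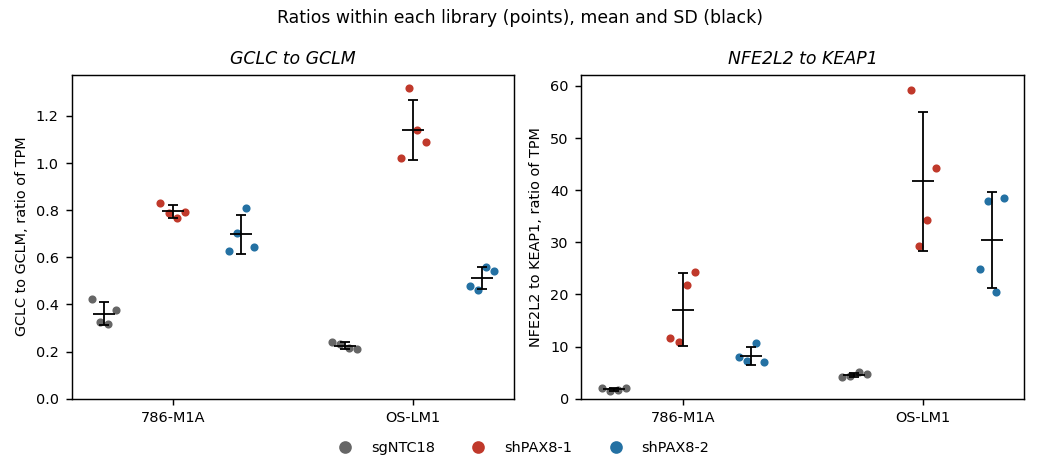
Ratios of TPM within each library (vertical axes, starting at 0) of GCLC to GCLM and of NFE2L2 to KEAP1, in 786-M1A and OS-LM1 with sgNTC18 (grey), shPAX8-1 (red) and shPAX8-2 (blue); points are libraries and black bars the mean and SD of 4. All hairpin libraries lie above the sgNTC18 libraries of their line in both panels. The GC trend was not removed from these ratios.

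TXNRD1 (chromosome 12, 104215779 to 104350307), the cytosolic thioredoxin reductase, was at 242 to 279 CPM with sgNTC18 in 786-M1A, at 342, 352, 433 and 430 CPM with shPAX8-1 and at 238, 228, 276 and 273 CPM with shPAX8-2. The OS-LM1 libraries were at 458 to 632 CPM with sgNTC18, at 512 to 654 CPM with shPAX8-1 and at 575 to 703 CPM with shPAX8-2, with all 3 groups overlapping. The log2 fold change with shPAX8-1 in 786-M1A was 0.62 ± 0.10 (adjusted p = 7.24e-05), and 0.31 with the GC trend removed, still called. It was 0.76 without shPAX8-1 libraries 1 and 2 and 0.43 without libraries 3 and 4. With shPAX8-2 in 786-M1A it was 0.00 ± 0.10 (adjusted p = 0.974). In OS-LM1 it was 0.10 ± 0.11 (adjusted p = 0.422) with shPAX8-1 and 0.27 ± 0.11 (adjusted p = 0.0309) with shPAX8-2. The latter call of TXNRD1 was lost with the GC trend removed, at 0.10, and on leaving out any of sgNTC18 libraries 2 to 4, shPAX8-2 libraries 1 and 2 or shPAX8-1 libraries 2 and 3, at 0.20 to 0.28.

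SRXN1 (chromosome 20, 646615 to 653200), sulfiredoxin, which restores over-oxidized peroxiredoxins, was lower with both hairpins in 786-M1A and higher with shPAX8-2 in OS-LM1. It was at 66.7, 65.6, 73.5 and 63.8 CPM with sgNTC18 in 786-M1A, at 34.8, 26.9, 31.5 and 31.5 CPM with shPAX8-1 and at 34.8, 32.6, 30.3 and 34.2 CPM with shPAX8-2. In OS-LM1 it was at 158, 121, 154 and 131 CPM with sgNTC18, at 142, 168, 139 and 146 CPM with shPAX8-1 and at 202, 200, 205 and 196 CPM with shPAX8-2. In 786-M1A every hairpin library lay below the sgNTC18 libraries, and SRXN1 fell by 1.09 ± 0.10 on the log2 scale (adjusted p = 2.3e-07) with shPAX8-1 and by 1.01 ± 0.10 (adjusted p = 9.1e-07) with shPAX8-2. In OS-LM1 the shPAX8-2 libraries lay above the others, at a log2 fold change of 0.51 ± 0.09 (adjusted p = 4.28e-05), and the shPAX8-1 value was 0.05 ± 0.09 (adjusted p = 0.619).

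NQO1 (chromosome 16, 69709401 to 69726560), the quinone reductase often used as a readout of NRF2, was at 291, 263, 299 and 275 CPM with sgNTC18 in 786-M1A, at 156, 175, 153 and 165 CPM with shPAX8-1 and at 139, 137, 165 and 191 CPM with shPAX8-2. The OS-LM1 libraries were at 525, 432, 510 and 463 CPM with sgNTC18, at 433, 385, 345 and 407 CPM with shPAX8-1 and at 292, 300, 297 and 320 CPM with shPAX8-2. The groups overlapped only between shPAX8-1 and sgNTC18 in OS-LM1, by 1 library, and between the hairpins in 786-M1A. In 786-M1A NQO1 fell by 0.78 ± 0.11 on the log2 scale (adjusted p = 1.29e-05) with shPAX8-1 and by 0.82 ± 0.11 (adjusted p = 1.22e-05) with shPAX8-2. In OS-LM1 it fell by 0.32 ± 0.08 (adjusted p = 0.00216) and by 0.67 ± 0.09 (adjusted p = 1.02e-06), and the first of these was -0.55 with the GC trend removed.

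HMOX1 (chromosome 22, 35381096 to 35394207), the inducible haem oxygenase, was at 59.7, 74.9, 71.5 and 58.0 CPM with sgNTC18 in 786-M1A, at 115, 126, 101 and 96.5 CPM with shPAX8-1 and at 61.9, 64.0, 53.1 and 68.6 CPM with shPAX8-2. In OS-LM1 it was at 131, 82.5, 113 and 92.6 CPM with sgNTC18, at 222, 224, 195 and 235 CPM with shPAX8-1 and at 210, 208, 250 and 250 CPM with shPAX8-2. Every group with a hairpin lay above sgNTC18 except shPAX8-2 in 786-M1A, which overlapped it. The log2 fold changes in OS-LM1 were 1.04 ± 0.11 (adjusted p = 1.09e-07) and 1.14 ± 0.11 (adjusted p = 4.04e-08). In 786-M1A they were 0.75 ± 0.12 (adjusted p = 4.92e-05) with shPAX8-1, or 1.21 with the GC trend removed, and -0.07 ± 0.12 (adjusted p = 0.623) with shPAX8-2. The shPAX8-1 value was 0.60 without libraries 1 and 2 and 0.86 without libraries 3 and 4.

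OSGIN1 (chromosome 16, 83953240 to 83966332), an oxidative stress-induced growth inhibitor, was the least abundant of the 9 by CPM in all groups except 786-M1A with sgNTC18, where GCLC was lower, with counts of 111 to 686 per library. It was at 13.0 to 19.4 CPM with sgNTC18 in 786-M1A, at 9.11 to 16.4 CPM with shPAX8-1 and at 9.20 to 17.9 CPM with shPAX8-2. The OS-LM1 libraries were at 6.42 to 12.9, 7.91 to 12.9 and 7.97 to 14.3 CPM. All groups overlapped within a line and none of the 4 comparisons was called, with log2 fold changes of -0.37 ± 0.21, -0.18 ± 0.21, 0.21 ± 0.21 and 0.09 ± 0.21. With the GC trend removed the value for shPAX8-1 in 786-M1A turned to 0.30 and was called, and those in OS-LM1 became 0.70 and 0.43, also called. The 786-M1A value of OSGIN1 was -0.65 and called without shPAX8-1 libraries 1 and 2, and -0.56 and called without library 1 alone.

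**Figure D3:**
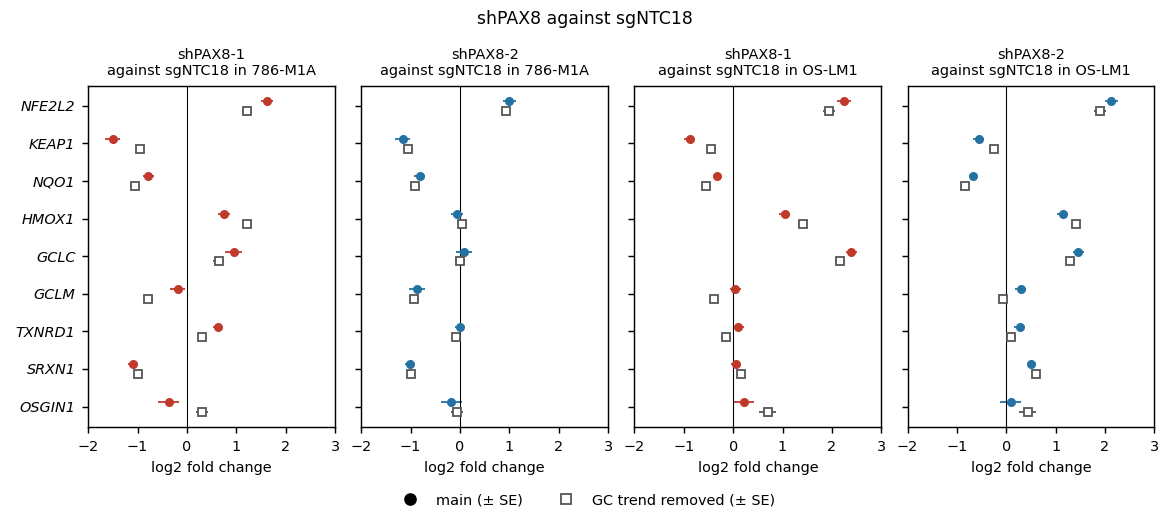
Log2 fold change (horizontal axis, ± SE) of the 9 genes for each hairpin against sgNTC18 in each line; filled circles are the values as reported and open squares those with each library's GC trend removed. NFE2L2 is above 0 and KEAP1 and NQO1 below 0 in all 4 panels with either value. GCLM in OS-LM1 and OSGIN1 with shPAX8-1 in 786-M1A lie on different sides of 0, as do some values called in neither setting.

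The next question was whether the difference between hairpin and sgNTC18 cells was the same in both lines, tested as an interaction with the hairpins averaged. It was more positive in OS-LM1 for 7 of the 9 genes and more negative for 0, against 29.9% and 28.8% of all genes. The difference between the lines was 1.44 ± 0.18 (adjusted p = 1.04e-07) on the log2 scale for GCLC, 1.36 ± 0.12 (adjusted p = 1.88e-10) for SRXN1 and 0.90 ± 0.17 (adjusted p = 6.22e-05) for NFE2L2. It was 0.78 ± 0.15 for HMOX1, 0.73 ± 0.17 for GCLM, 0.64 ± 0.16 for KEAP1 and 0.33 ± 0.12 for NQO1, with adjusted p of 0.000112, 0.000742, 0.00129 and 0.0206. For KEAP1 and NQO1, which were lower with both hairpins in both lines, this means a smaller fall in OS-LM1. The NQO1 interaction was lost at 0.27 (adjusted p = 0.0622) without the 786-M1A shPAX8-1 libraries 3 and 4, and on leaving out 786-M1A sgNTC18 library 3, OS-LM1 sgNTC18 library 2 or 786-M1A shPAX8-1 library 3. TXNRD1 (-0.10 ± 0.14) and OSGIN1 (0.45 ± 0.28) were not called, but with the GC trend removed OSGIN1 was 0.51 and called (adjusted p = 0.0245). The KEAP1 interaction was 0.75 without the 786-M1A shPAX8-1 libraries 1 and 2 and 0.47 without libraries 3 and 4, and that of GCLM 0.54 and 0.87, all called. PAX8 itself was also lowered less in OS-LM1, by 1.87 ± 0.17 on the log2 scale (adjusted p = 7.53e-10), and the part of this in the members' values was not tested.

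With both lines in a single model that has a term for the line, 4 of the 9 genes were higher with a hairpin and 3 lower, against 31.3% and 31.6% of all genes. The log2 fold changes were 1.74 ± 0.16 for NFE2L2, 1.23 ± 0.25 for GCLC, 0.72 ± 0.15 for HMOX1 and 0.26 ± 0.11 for TXNRD1, and -1.03 ± 0.12 for KEAP1, -0.65 ± 0.09 for NQO1 and -0.43 ± 0.16 for SRXN1. The SRXN1 value averages a fall in 786-M1A with, in OS-LM1, no called change with shPAX8-1 and a rise with shPAX8-2. The calls of TXNRD1 (adjusted p = 0.0383) and SRXN1 (adjusted p = 0.0217) were lost without either pair of 786-M1A shPAX8-1 libraries, at 0.18 to 0.24 and -0.37 to -0.36, and with the GC trend removed, at 0.05 and -0.36. GCLM, at -0.18 ± 0.14, and OSGIN1, at -0.08 ± 0.16, were not called, and with the GC trend removed they were called at -0.54 and 0.31. Leaving out 786-M1A sgNTC18 library 3 alone lost SRXN1, and leaving out any of 11 libraries lost TXNRD1.

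The hairpins were then compared with each other, where both arms carry an RNAi construct. In 786-M1A, 5 of the 9 genes were higher with shPAX8-1 than with shPAX8-2 and 0 were lower, against 24.2% and 22.9% of all genes. In OS-LM1, 2 were higher and 2 lower, against 12.4% and 16.7%. The rank correlation of these fold changes with GC across genes was -0.562 in 786-M1A, stronger than in any comparison with sgNTC18. In OS-LM1 it was -0.211. In 786-M1A the log2 differences were 0.86 ± 0.17 (adjusted p = 0.00114) for GCLC, 0.82 ± 0.12 (adjusted p = 0.000139) for HMOX1, 0.67 ± 0.16 (adjusted p = 0.00350) for GCLM, 0.62 ± 0.13 (adjusted p = 0.00121) for NFE2L2 and 0.62 ± 0.10 (adjusted p = 0.000377) for TXNRD1. PAX8 was also lower with shPAX8-1 than with shPAX8-2 there, by a log2 difference of -1.18 ± 0.15 (adjusted p = 4.01e-05), and its part in these differences was not tested. These values moved with the pairs of shPAX8-1 libraries. GCLM was 0.97 without libraries 1 and 2 and 0.30 (adjusted p = 0.0682) without libraries 3 and 4, and GCLC was 1.14 and 0.52. NFE2L2 was 0.84 and 0.37, and TXNRD1 was 0.76 and 0.46. HMOX1 was 0.67 and 0.96. With the GC trend removed GCLC was 0.64, NFE2L2 0.29, TXNRD1 0.39 and HMOX1 1.18, all called. GCLM was then 0.15 and not called, and OSGIN1 turned from -0.18 (not called) to 0.37 (called). KEAP1, at -0.34 ± 0.15 (adjusted p = 0.0743), was called at -0.65 without libraries 1 and 2, and also on leaving out library 1 or library 2 alone. Its value turned to 0.10 and was not called with the GC trend removed.

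In OS-LM1, where PAX8 differed between the hairpins by -0.05 ± 0.12 (adjusted p = 0.797), GCLC was higher with shPAX8-1 by 0.93 ± 0.10 on the log2 scale (adjusted p = 2.08e-06). NQO1 was higher by 0.35 ± 0.08 (adjusted p = 0.00457), and SRXN1 was lower, at -0.46 ± 0.09 (adjusted p = 0.000643). KEAP1 was lower, at -0.32 ± 0.11 (adjusted p = 0.0329), a call that was lost with the GC trend removed, at -0.19, and on leaving out any of 9 libraries, at -0.33 to -0.23. GCLM, at -0.24 ± 0.11 (adjusted p = 0.116), was called at -0.32 with the GC trend removed. GCLC was thus higher with shPAX8-1 in both lines, and its difference did not itself differ detectably between them (0.10 ± 0.20, adjusted p = 0.760). A test of the hairpin difference between the lines called 3 of the 9 genes lower in OS-LM1 and 0 higher, against 14.5% and 12.7% of all genes. These were HMOX1 at -0.89 ± 0.18 (adjusted p = 0.000587), GCLM at -0.88 ± 0.20 (adjusted p = 0.00186) and TXNRD1 at -0.76 ± 0.16 (adjusted p = 0.000762). GCLM was -0.51 without the 786-M1A shPAX8-1 libraries 3 and 4 and -0.45 with the GC trend removed, both called. Removing the GC trend gave -1.15 for HMOX1 and -0.60 for TXNRD1, also called. Across genes, the rank correlation of this difference with GC was 0.4. NFE2L2, at -0.48 ± 0.20 (adjusted p = 0.0718), was called at -0.68 without libraries 1 and 2, and at -0.58 to -0.53 on leaving out any of 6 single libraries. NQO1 (0.34 ± 0.14) and SRXN1 (-0.35 ± 0.14) were not called, and with the GC trend removed they were called at 0.47 and -0.41.

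**Figure D4:**
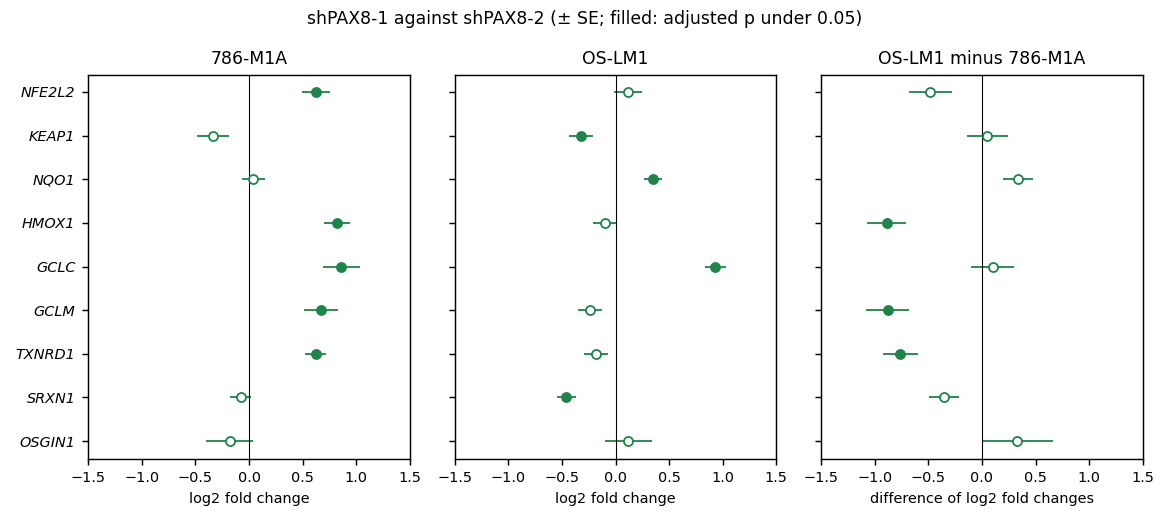
Log2 fold change (horizontal axes, ± SE) of shPAX8-1 against shPAX8-2 for the 9 genes in 786-M1A, in OS-LM1 and as the difference between the lines; filled points have an adjusted p under 0.05. GCLC is higher with shPAX8-1 in both lines, and HMOX1, GCLM and TXNRD1 are called in 786-M1A and in the difference between the lines.

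The lines were also compared directly. With sgNTC18, 6 of the 9 genes were higher in OS-LM1 and 2 lower, against 32.0% and 31.0% of all genes. TXNRD1 and SRXN1 were higher by 1.06 ± 0.11 and 1.06 ± 0.09 on the log2 scale (adjusted p = 4.77e-09 and 2.05e-10), NQO1 by 0.77 ± 0.10, HMOX1 by 0.67 ± 0.13, NFE2L2 by 0.62 ± 0.14 and GCLM by 0.56 ± 0.14. KEAP1 was lower, at -0.71 ± 0.13 (adjusted p = 2.8e-05), and so was OSGIN1, at -0.71 ± 0.23 (adjusted p = 0.00866), which was -0.15 and not called with the GC trend removed. GCLC, at -0.12 ± 0.14, was not called. Removing the GC trend gave -0.38 for KEAP1 and 0.31 for GCLM, both still called, and -0.27 for GCLC, which was then called (adjusted p = 0.0206 by edgeR). With the hairpins, 7 were higher in OS-LM1 and 0 lower, against 41.7% and 41.5% of all genes, led by SRXN1 at 2.43 ± 0.07 (adjusted p = 2.13e-21) and NFE2L2 at 1.53 ± 0.10 (adjusted p = 1.03e-13). GCLC, at 1.32 ± 0.10 (adjusted p = 2.68e-12), was called here. KEAP1, at -0.07 ± 0.09, turned to 0.34 and was called with the GC trend removed, and OSGIN1, at -0.26 ± 0.17, turned to 0.36 and was called. KEAP1 was -0.22 and OSGIN1 -0.40, both called, without the 786-M1A shPAX8-1 libraries 3 and 4.

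By TPM, which allows levels of different genes to be set side by side, NQO1 had the highest mean of the 9 with sgNTC18, at 204 ± 15.4 TPM (SD, n = 4) in 786-M1A and 329 ± 28.1 TPM in OS-LM1, and GCLC the lowest mean, at 7.18 ± 1.34 and 6.23 ± 0.352 TPM. With the hairpins NFE2L2 had the highest mean, at 239 ± 43.1 and 154 ± 16.1 TPM in 786-M1A and 606 ± 61.4 and 528 ± 98.6 TPM in OS-LM1 with shPAX8-1 and shPAX8-2. With sgNTC18 in 786-M1A the neighbours NFE2L2 (84.3 ± 7.57 TPM) and HMOX1 (78.0 ± 8.79 TPM) lay within their spread, as did KEAP1 (46.8 ± 3.69 TPM) and SRXN1 (46.7 TPM). With sgNTC18 in OS-LM1 so did NFE2L2 (123 ± 10.2 TPM) and HMOX1 (117 ± 23.6 TPM), and KEAP1 (26.9 ± 1.54 TPM) and GCLM (27.7 ± 1.98 TPM). OSGIN1 there, at 8.70 ± 2.63 TPM, had a library at 5.85 TPM and overlapped GCLC, at 5.82 to 6.68 TPM, so these were not separated.

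The genes whose levels followed each member most closely were sought among 9363 genes with a mean log2 CPM of at least 3, by Pearson's r of log2 CPM over the 24 libraries after centring each line. The libraries fall into groups, which every such r shares, and no test was made. NFE2L2 was followed most closely by TJP1 (0.991) and RBMS1 (0.987), KEAP1 by ECI1 (0.988) and PTGES2 (0.984), and GCLC by PTPN4 (0.975) and GGPS1 (0.971). SRXN1 was followed by DUSP3 (0.967) and PCSK5 (0.965), NQO1 by COA4 (0.957) and DUSP12 (0.956), and HMOX1 by MFSD2A (0.944) and IL15RA (0.938). The values were lower for GCLM, with GLO1 and MATR3 (both 0.926), and for TXNRD1, with ACSL3 (0.919) and IPO5 (0.915), and lowest for OSGIN1, with SRC (0.785) and HSF1 (0.782).

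A list of 81 further genes of the pathway was read by role. With shPAX8-1 and shPAX8-2 against sgNTC18 in 786-M1A, 72 of the 81 were tested, 25 and 20 were higher and 34 and 31 lower, at median log2 fold changes of -0.17 and -0.24, where of all genes 36.1% and 31.5% were higher and 34.5% and 30.9% lower, at medians of 0.03 and 0.02. In OS-LM1, 75 were tested, 29 and 22 were higher and 34 and 32 lower, at medians of -0.01 and -0.11, where of all genes 35.6% and 34.3% were higher and 35.8% and 34.1% lower, at a median of -0.01 for both. The counts of genes called alike that follow stand against the 12.5% of all genes that were higher and the 14.6% that were lower in all 4 comparisons, which share sgNTC18 libraries within a line. Of the 11 other regulators, 5 were called in the same direction in all 4 comparisons. BACH1, the repressor that competes with NRF2 for the same elements, was higher by 1.81, 2.00, 1.31 and 1.54 on the log2 scale in the order of shPAX8-1 and shPAX8-2 in 786-M1A and then in OS-LM1. MAFF, a small MAF partner, was higher by 1.46, 1.45, 1.07 and 1.33. DPP3, which can bind KEAP1, was lower, at -2.63, -2.23, -1.26 and -1.09 (-0.84 for the third with the GC trend removed), and more so in 786-M1A (interaction 1.28, adjusted p = 4.92e-07). SQSTM1, the autophagy adaptor that binds KEAP1, was lower in 786-M1A, at -0.81 and -0.79, and at 0.02 and 0.01 and not called in OS-LM1 (interaction 0.85, adjusted p = 1.11e-06). With the GC trend removed SQSTM1 was at -0.39 and -0.70 in 786-M1A and at 0.36 and 0.27 in OS-LM1.

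Of the other 18 glutathione genes, 17 were tested, and 7 were called in the same direction in all 4 comparisons. GPX3, a secreted glutathione peroxidase, was higher by 0.59, 2.08, 2.98 and 4.49 (interaction 2.43, adjusted p = 3.44e-09). Its level was low in 786-M1A, with means of 2.04, 3.04 and 8.53 CPM with sgNTC18, shPAX8-1 and shPAX8-2. The OS-LM1 means were 5.79, 46.7 and 130 CPM. GSS, which completes glutathione synthesis after GCLC and GCLM, was lower at -1.91, -1.76, -0.51 and -0.67, and SLC3A2, the heavy chain of the cystine transporter, was lower at -0.51, -0.69, -1.11 and -0.87. Removing the GC trend gave shPAX8-1 values of -0.04 for SLC3A2 and 0.93 for GPX3 in 786-M1A, and of -0.28 for GSS and -0.74 for SLC3A2 in OS-LM1. Among the other 13 thioredoxin and peroxiredoxin genes, 12 were tested in 786-M1A and 13 in OS-LM1, and 2 were called alike in all 4 comparisons. TXNRD2, the mitochondrial thioredoxin reductase, was lower at -1.13, -0.89, -1.36 and -1.26, and PRDX3, a mitochondrial peroxiredoxin, was higher by 1.51, 0.81, 0.71 and 0.55. With the GC trend removed TXNRD2 was at -0.58, -0.78, -0.92 and -0.97 and PRDX3 at 1.05, 0.74, 0.37 and 0.28. PRDX4 was lower in OS-LM1, at -0.93 with shPAX8-1, and was not called in 786-M1A, at 0.28 and 0.03 (interaction -1.09, adjusted p = 4.74e-06).

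Of the other 14 genes of quinone, carbonyl and aldehyde reduction, 12 were tested in 786-M1A and 13 in OS-LM1. Among them, 5 were called alike in all 4 comparisons. PTGR1, a reductase of prostaglandins and other enones, was higher by 2.36, 1.88, 1.72 and 1.49, whereas CBR3 was lower at -1.58, -1.38, -1.78 and -1.93 and AKR1B10 at -1.36, -1.72, -1.79 and -2.05. AKR1C1 and AKR1C3, whose reads are uncertain because the AKR1C genes are near-identical, had interactions of -3.99 and -2.81 (adjusted p = 2.66e-12 and 9.43e-11). AKR1C1 had means of 0.334, 14.3 and 4.08 CPM in 786-M1A and 10.1, 15.6 and 12.5 CPM in OS-LM1 with sgNTC18, shPAX8-1 and shPAX8-2. Among the other 9 genes of haem breakdown and iron storage, 7 were tested in 786-M1A and 8 in OS-LM1, and 4 were called alike. BLVRA, which reduces the biliverdin that haem oxygenase makes, was lower at -0.72, -1.01, -0.66 and -0.60. SLC48A1, a haem transporter, was lower at -0.77, -0.51, -1.61 and -0.98, the first of which was -0.34 with the GC trend removed. FTH1, whose reads are uncertain for the same reason as those of AKR1C1, was higher by 1.15, 0.83, 0.54 and 0.48. FTL, whose reads are likewise uncertain, was higher in 786-M1A by 1.70 and 1.57. In OS-LM1 FTL was at 0.30 (called) and 0.14 (not called), with an interaction of -1.38 (adjusted p = 8.47e-09). FECH, which inserts iron into haem, was lower in 786-M1A, at -1.62 with shPAX8-1, and at -0.01 and 0.00 in OS-LM1, or -0.27 and -0.18 with the GC trend removed (interaction 1.34, adjusted p = 2.17e-10). SLC40A1, the iron exporter, was not tested in 786-M1A and had means of 0.121, 13.8 and 12.4 CPM in OS-LM1 with sgNTC18, shPAX8-1 and shPAX8-2.

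Of the 7 genes listed for NADPH supply and the pentose phosphate pathway, all tested, 3 were lower in all 4 comparisons. These were TALDO1 at -1.11, -1.07, -1.57 and -1.22, IDH2 at values between -1.62 and -0.55 and PGD at -0.52, -0.97, -0.35 and -0.31. TKT, which like TALDO1 acts in the non-oxidative pentose phosphate pathway, was higher in 786-M1A by 0.54 and 0.51 and lower in OS-LM1 at -0.64 and -0.33 (interaction -0.97, adjusted p = 1.14e-06). With the GC trend removed TKT was at 1.03, 0.61, -0.24 and -0.04, and IDH2 at -0.60, -0.63, -1.29 and -0.30. Of 8 genes of superoxide handling, 5 were tested and 2 were called alike. SOD2, the mitochondrial superoxide dismutase, was higher by 1.39, 0.34, 2.34 and 1.84, and CYBA, a subunit of NADPH oxidases, was lower at -2.04, -0.91, -1.84 and -1.25, the first of which was -1.35 with the GC trend removed. CAT, catalase, was higher in 786-M1A by 1.29 and 1.27 and was at 0.23 (called) and -0.11 (not called) in OS-LM1, or 0.03 and -0.25 with the GC trend removed (interaction -1.19, adjusted p = 2.33e-09). OSGIN2 was called in 1 of the 4 comparisons, at -0.86 with shPAX8-2 in 786-M1A.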

How the data were processed

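The authors mapped poly(A) RNA-seq reads to hg38 with Bowtie2 and RSEM (per the labels) and deposited, per library, RSEM expected counts and TPM values for 26475 genes. The labels name a KAPA stranded kit and the study's methods a Lexogen kit. Versions of Bowtie2 and RSEM are not given in the sources used here. Expected counts were rounded, filtered with filterByExpr, scaled by TMM and tested with edgeR 4.0.16 (robust quasi-likelihood, Benjamini-Hochberg) in R 4.3.3, within each line (12 libraries) or, between lines, over 24. DESeq2 1.42.0 and limma 3.58.1 on log2(TPM + 1) were alternatives. SE is the absolute log2 fold change over the square root of F. GC trends were fitted per library as natural splines with 5 degrees of freedom on transcript GC content, known for 87.5% of genes. The procedure was tested on simulated counts for shPAX8-1 against sgNTC18 in 786-M1A. Over 10 draws with at least 14228 genes tested it recovered 75.5% of 2-fold and 100% of 4-fold changes, and 4.31% of calls were false. The simulated counts had the same spread for all genes, few changed genes, no GC trend and no pairs of libraries. These rates therefore do not cover such features of the real libraries. The limit on recovery was changed after a first run. The first limit, which the first draw did not exceed, was lowered and then replaced by the recovery expected from the simulated variance.

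Members and pathway lists were chosen with earlier results of these data known. Named further genes are, per role, up to 3 called alike in all 4 comparisons with sgNTC18, by their smallest change, and up to 3 with the largest interaction, with some left out of the text. No replicates agreed within sampling noise. The alternative with GC and length trends both removed was chosen after seeing the data.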

Additional observations from a re-analysis of the deposited data

Results flagged for a closer look

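In 54 sets of 4 libraries (9 genes in 6 groups), 3 had a highest library that stood apart from the other 3 by Dixon's criterion, where chance gives about 1 in 20. They were NFE2L2 at 287 CPM in 786-M1A shPAX8-2 library 3, GCLC at 42.2 CPM in OS-LM1 shPAX8-2 library 2 and OSGIN1 at 14.3 CPM in OS-LM1 shPAX8-2 library 3.

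The effect of the hairpins against sgNTC18 differed between the lines by an edgeR interaction test for 7 genes, with log2 differences (OS-LM1 minus 786-M1A) of 0.90 for NFE2L2, 0.64 for KEAP1, 0.33 for NQO1, 0.78 for HMOX1, 1.44 for GCLC, 0.73 for GCLM and 1.36 for SRXN1. The difference between the hairpins differed between the lines for 3, at -0.89 for HMOX1, -0.88 for GCLM and -0.76 for TXNRD1.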

How the results depend on the processing

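Counting only values called with or without it, removing each library's GC trend turned the direction of 7 of the 99 member values. These were OSGIN1 with shPAX8-1 against sgNTC18 in 786-M1A (0.30, and 0.36 with the length trend removed too), GCLM with shPAX8-1 (-0.39 and -0.42) and shPAX8-2 (-0.07 and -0.14) in OS-LM1, OSGIN1 between the hairpins in 786-M1A (0.37 and 0.36), KEAP1 (0.34 and 0.35) and OSGIN1 (0.36 and 0.34) between the lines with the hairpins, and OSGIN1 over both lines (0.31 and 0.36). Values called in neither setting also changed sign, such as KEAP1 between the hairpins in 786-M1A, from -0.34 to 0.10. The cause was not tested. With a replicate block and the GC trend removed, the first 5 of the 7 turned too, to 0.30, -0.39, -0.07, 0.37 and 0.33. With GC and length trends removed 8 members were called with shPAX8-1 in OS-LM1 instead of 5. The hairpin difference between the lines was called for 5 members instead of 3 with the GC trend removed, with or without the block or the length trend, and without 786-M1A shPAX8-1 libraries 1 and 2. A log2 fold change over 0.58 left 4 members instead of 8 with shPAX8-2 in OS-LM1, and 1 instead of 4 between the hairpins there. Genes called between the hairpins numbered 4329 (adjusted p under 0.01), 4335 (fold) and 3869 (without libraries 3 and 4) instead of 6803 in 786-M1A, and 2703 and 1978 instead of 4378 in OS-LM1. For the hairpin difference between the lines they numbered 2449 (adjusted p under 0.01), 6817 (without libraries 1 and 2) and 2579 (without libraries 3 and 4) instead of 4264. On leaving out any library, 3 to 5 members were called in that difference.

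Same-numbered libraries did not deviate together (mean correlation 0.003, 6 of 24 pairs over 0.1), so the replicate number was not taken to pair them. A replicate block left 94 of 99 member values on their side of the threshold and lost GCLM at 0.28 with shPAX8-2 in OS-LM1, KEAP1 at -0.32 between the hairpins in OS-LM1, OSGIN1 at -0.74 between the lines with sgNTC18, and TXNRD1 at 0.26 and SRXN1 at -0.43 over both lines. DESeq2 kept 98, DESeq2's size factors 99, no filter 98 and limma on log2 TPM 93.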
